A study of Mus musculus with 6 samples.

Results

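The genes described here handle heme and iron in the mouse liver: Hmox1, Blvra and Blvrb (heme degradation), Fth1 and Ftl1 (iron storage), Tfrc, Steap4 and Slc11a1 (iron uptake and transport), and Slc40a1 and Hamp (iron export and its hormone). These 10 genes were taken by name from the 15454 genes of the count table, and all 10 were found in the count table and the FPKM table. The low-count filter kept 12411 genes for testing, among them all 10.

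Liver RNA was sequenced from 6 male mice on a C57BL/6 background, aged 8 to 10 weeks, with no transgene or deletion named. All of them underwent 75% hepatic warm ischemia/reperfusion (I/R), in which the blood supply of most of the liver is clamped and then released. The I/R group (n = 3) received vehicle, and the I/R+Rk2 group (n = 3) received ginsenoside Rk2, a minor saponin of ginseng, 2 days before surgery and again when reperfusion began. The paper names its higher-dose Rk2 group as the one sequenced, and the labels do not give the dose. No sham-operated liver was analysed here, so each value compares injured livers with and without Rk2 and not with an uninjured level. Each sample is 1 liver, taken here as 1 mouse, although the labels do not say that each liver came from a separate mouse, and the p-values measure the spread between these samples.

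Heme oxygenase-1, the product of Hmox1, opens the heme ring and releases iron, carbon monoxide and biliverdin, which the biliverdin reductases Blvra and Blvrb turn into bilirubin. Freed iron is stored in ferritin, a shell of heavy (Fth1) and light (Ftl1) chains, or leaves the cell through ferroportin (Slc40a1), which the liver hormone hepcidin (Hamp) removes from the cell surface. Cells take up transferrin-bound iron through the transferrin receptor (Tfrc), reduce it with metalloreductases such as Steap4, and move it out of phagosomes with Nramp1 (Slc11a1). Hmox1 is a textbook stress-induced gene of the liver, hepatocytes are the main source of hepcidin, and resident macrophages recycle the iron of old red cells.

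Total counts ranged from 16809613 to 35618074 per library, so that 3 counts correspond to between 0.0888 and 0.184 CPM, the standard unit of counts scaled to library size. Levels below are CPM on library sizes scaled by the trimmed mean of M-values (TMM) unless FPKM (fragments scaled to transcript length and library size) is named, and a log2 fold change is I/R+Rk2 over I/R. Adjusted p-values come from edgeR's quasi-likelihood test over all tested genes with Benjamini-Hochberg adjustment and are written as edgeR adjusted p. The hepatocyte marker list was high in every library, with Alb at 49227 ± 4366 CPM in I/R livers (SD, n = 3), as the liver label states.

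The 10 genes split into a sharply lower group and a group of small differences. Hmox1, Steap4 and Slc11a1 were between 5.55-fold and 11.8-fold lower in I/R+Rk2 livers, whereas the ferritin, transferrin receptor, ferroportin and hepcidin genes differed by less than the 2-fold threshold. At an adjusted p under 0.05, 5 of the 10 genes passed, and 43.9% of all tested genes passed the same threshold. Of these, 1 was higher (Blvrb), where 20.3% of all genes were higher, and 4 were lower (Hmox1, Steap4, Slc11a1 and Fth1), where 23.7% of all genes were lower. With library size alone as the scaling, the split of all genes moved from 2516 higher and 2938 lower to 1320 higher and 3481 lower, and of the 10 genes the 4 lower ones still passed while Blvrb did not. With a fold change above 2 required as well, 3 of the 10 remained, all of them lower, against 14.6% of all genes in either direction and 11.4% lower. The groups did not overlap in CPM for 6 of the 10 genes, and the same held for 57.4% of all tested genes. The count of 5 is therefore near the share seen over all genes and is no result about the 10 genes as a group, so the values of each gene follow.

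**Figure D1:**
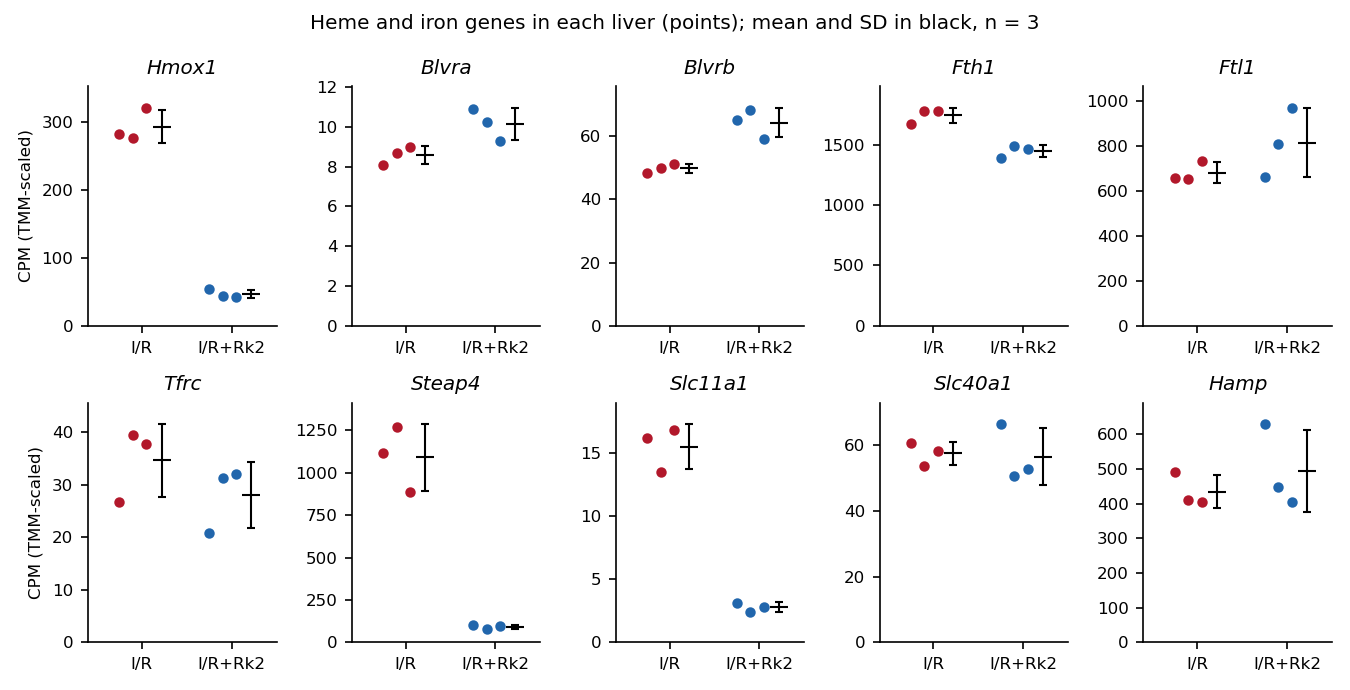
CPM (TMM-scaled, vertical axes from 0) of each of the 10 genes in each liver, I/R in red and I/R+Rk2 in blue, with the group mean and SD in black (n = 3). Hmox1, Steap4 and Slc11a1 fall to a small part of their I/R level in every I/R+Rk2 liver, while Ftl1, Tfrc, Slc40a1 and Hamp overlap between groups.

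Heme degradation was represented by 3 genes that did not move together. Hmox1 (ENSMUSG00000005413.8, GRCm38 chr8:75093621-75100589, plus strand) stood at 282, 277 and 321 CPM in the I/R livers and at 53.7, 44.8 and 42.0 CPM in the I/R+Rk2 livers. Every I/R+Rk2 liver lay far below every I/R liver, and the spread within each group was small beside the gap. The means were 293 ± 24.4 and 46.8 ± 6.12 CPM (SD, n = 3 each), a 6.26-fold lower level (log2 fold change -2.65, SE 0.12, edgeR adjusted p = 0.000197). Per length, Hmox1 went from 186 ± 14.3 to 27.0 ± 4.18 FPKM. The fall passed the threshold under all 16 alternative analyses, with log2 fold changes from -2.80 to -2.57.

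The reductases that act after heme oxygenase did not fall with it. Blvrb (ENSMUSG00000040466.16, GRCm38 chr7:27447978-27466144, plus strand) measured 48.4, 50.1 and 51.1 CPM in I/R livers against 65.3, 68.4 and 59.2 CPM in I/R+Rk2 livers. All I/R+Rk2 livers were higher than all I/R livers on this scale, with means of 49.9 ± 1.37 and 64.3 ± 4.69 CPM (log2 fold change 0.37, SE 0.09, edgeR adjusted p = 0.0130). On the FPKM scale the groups overlapped and the rise did not pass in any of the limma fits (adjusted p = 0.316 to 0.333), nor did it with library size alone as the scaling (edgeR adjusted p = 0.170) or with replicate 2 of the I/R+Rk2 group left out (edgeR adjusted p = 0.0529).

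Blvra (ENSMUSG00000001999.15, GRCm38 chr2:127070665-127097084, plus strand), which encodes the other biliverdin reductase, was the least abundant of the 10 genes per length in I/R livers, at 7.49 ± 0.508 FPKM. Its CPM values were 8.08, 8.70 and 8.97 in I/R livers and 10.9, 10.2 and 9.27 in I/R+Rk2 livers, without overlap, but the difference did not pass (log2 fold change 0.24, SE 0.12, edgeR adjusted p = 0.137). Per length, Blvrb exceeded Blvra 7.70 ± 0.110 times in I/R livers and 8.15 ± 0.540 times in I/R+Rk2 livers. That ratio did not differ between groups beyond its spread (log2 difference 0.08, exact two-sided permutation p = 0.4, adjusted over the 2 ratios p = 0.4, where 0.1 is the smallest p that 3 against 3 livers allow).

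Of the genes around heme, the list of heme and haemoglobin scavenging and transport held 11 names, of which 9 were tested, with 2 higher, 3 lower and a median log2 fold change of 0.05 beside -0.01 for all genes. That is 55.6% called, beside 43.9% of all tested genes. Cd163, the macrophage receptor for haptoglobin-bound haemoglobin, fell from 4.04 ± 0.584 to 1.53 ± 0.300 CPM (log2 fold change -1.38, SE 0.23, edgeR adjusted p = 0.00357). Hp, which encodes haptoglobin, an acute-phase protein that binds free haemoglobin, fell by 0.75 on the log2 scale (edgeR adjusted p = 0.0375), and Slc48a1, which carries heme out of endolysosomes, fell by 0.34 (edgeR adjusted p = 0.0414). Slc46a1, a folate and heme transporter, rose by 0.55 (edgeR adjusted p = 0.0174). The call of Slc48a1 was lost in 9 of the 16 alternatives, and those of Hp and Slc46a1 in 5 each. Abcg2, an exporter that can carry porphyrins, rose by 0.39 (edgeR adjusted p = 0.0458). Its change took the opposite sign in the 3 FPKM fits, and the call was lost in 6 more of the 16 alternatives. Hmox2, the constitutive heme oxygenase, had a log2 fold change of 0.45 that did not pass (SE 0.22, edgeR adjusted p = 0.133).

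The 5 erythroid marker genes tested, of 8 listed, all passed as higher in I/R+Rk2 livers, beside 20.3% of all tested genes. The summed level over the list was 1301 to 2520 CPM in I/R livers and 3243 to 4196 CPM in I/R+Rk2 livers. The RNA of red cells and their precursors thus differed between the groups in the opposite direction to Hmox1, and its part in the heme gene values was not tested.

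Hmox1 transcription is induced by NRF2 (Nfe2l2) and held down by BACH1. In the list of Hmox1 regulators and NRF2 targets, 14 genes were tested, 1 was higher and 8 were lower, and the median log2 fold change was -0.66. Over all tested genes 20.3% were higher and 23.7% lower. Both regulators were themselves lower: Nfe2l2 fell by 0.74 on the log2 scale (edgeR adjusted p = 0.00471) and Bach1, the repressor, by 1.44 (edgeR adjusted p = 0.000639).

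Among the targets, Srxn1, a sulfiredoxin that repairs oxidised peroxiredoxins, fell from 451 ± 46.4 to 72.4 ± 13.8 CPM (log2 fold change -2.64, SE 0.16, edgeR adjusted p = 0.00024). Slc7a11, the cystine importer, fell by 2.51 (edgeR adjusted p = 0.000265), Gclc, the catalytic subunit of the first enzyme of glutathione synthesis, by 1.61 (edgeR adjusted p = 0.000366), and Txnrd1, a thioredoxin reductase, by 1.31 (edgeR adjusted p = 0.000379). Not every target followed. Gclm, the partner subunit of Gclc, had a log2 fold change of 0.26 (SE 0.12, edgeR adjusted p = 0.109), and Nqo1, a quinone reductase much used as an NRF2 readout, had one of -0.17 (SE 0.21, edgeR adjusted p = 0.537). Osgin1, an oxidative-stress-induced growth inhibitor gene, rose by 1.21 (edgeR adjusted p = 0.00485). Gclm, Nqo1, Osgin1, Nfe2l2 and Hmox2 were picked out after their values were seen.

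Iron storage is shown with the sequences through which iron regulatory proteins act. These proteins bind a short hairpin, the iron-responsive element, and in the 5′ untranslated region (UTR) they block translation, while in the 3′ UTR they protect the transcript from decay. RNA counts can reflect the second kind of control, though not that alone, and they do not measure the first. The transcripts of Fth1, Ftl1 and Slc40a1 each held 1 such site in the 5′ UTR and that of Tfrc held 4 in the 3′ UTR, as found in the GENCODE annotation of GRCm38 with a loop of CAGTGN, a stem of 5 pairs of which at least 4 form, and a C just before the stem. The 6 loop bases are in capitals, and 1 of the Tfrc sites is shown to compare the stems.
Fth1 5′ UTR (chr19:9982732-9982761, plus strand): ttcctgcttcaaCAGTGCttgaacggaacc
Ftl1 5′ UTR (chr7:45459778-45459807, minus strand): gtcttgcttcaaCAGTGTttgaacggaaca
Slc40a1 5′ UTR (chr1:45925464-45925493, minus strand): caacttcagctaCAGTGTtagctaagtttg
Tfrc 3′ UTR (chr16:32631219-32631248, plus strand): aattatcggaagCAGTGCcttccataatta
Both ferritin sites share the stem bases next to the loop, and the ferroportin and transferrin receptor sites have stems of their own. By the same search, 0.996% of 20580 genes held a site in the 5′ UTR and 4.16% of 20978 genes held one in the 3′ UTR, and Tfrc was the 1 gene with at least 4 sites there. A match describes these letters and is no measure of binding.

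Fth1 (ENSMUSG00000024661.7, GRCm38 chr19:9980598-9985098, plus strand) was the most abundant of the 10 genes per length in both groups. It measured 1669, 1782 and 1775 CPM in I/R livers and 1390, 1488 and 1464 CPM in I/R+Rk2 livers. The groups did not overlap, although the step between them was small. The means of 1742 ± 63.0 and 1447 ± 51.3 CPM gave a log2 fold change of -0.27 (SE 0.09), which passed only narrowly (edgeR adjusted p = 0.0482). The call was lost in 10 of the 16 alternatives, all 6 in which 1 liver was left out among them, with adjusted p from 0.0507 to 0.125 where it was lost. On the FPKM scale the gap was wider, from 1995 ± 58.3 to 1484 ± 35.8.

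Ftl1 (ENSMUSG00000050708.16, GRCm38 chr7:45457944-45459884, minus strand) did not share that direction. Its values were 657, 653 and 735 CPM in I/R livers and 663, 807 and 969 CPM in I/R+Rk2 livers, so that I/R+Rk2 replicate 1 lay among the I/R livers and the other two lay above them. The difference did not pass (log2 fold change 0.26, SE 0.15, edgeR adjusted p = 0.195). Ftl1 overlaps other annotated genes on both strands, and its transcript is 99.6% identical over 910 aligned bases to that of Ftl1-ps1 (GRCm38 chr13:74399694-74407346), so reads may have been divided between them. Summed with Ftl1-ps1, the log2 fold change was 0.24 (SE 0.13, edgeR adjusted p = 0.176).

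The heavy to light chain ratio, which in ferritin differs between tissues, was taken per length within each liver. Fth1 exceeded Ftl1 by 2.42, 2.59 and 2.34 times in FPKM in I/R livers and by 2.0, 1.73 and 1.3 times in I/R+Rk2 livers. The ratio was lower in every I/R+Rk2 liver than in any I/R liver, with means of 2.45 ± 0.132 and 1.68 ± 0.354. The log2 difference of -0.57 had an exact two-sided permutation p of 0.1, the smallest that 3 against 3 livers allow, and p = 0.2 when adjusted over the 2 ratios, so the threshold of 0.05 was out of reach of this test. The ratio depends on how reads were divided with Ftl1-ps1. With the FPKM of Ftl1 and Ftl1-ps1 summed, an alternative added after seeing the data, it was 1.61 ± 0.0834 in I/R livers and 1.12 ± 0.188 in I/R+Rk2 livers, still without overlap (log2 difference -0.54).

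The list of iron sensing and delivery within the cell held 13 names. Of its 11 tested genes, 1 was higher and 1 was lower (18.2% called, beside 43.9% of all tested genes), and the median log2 fold change was 0.02. Fbxl5, the iron-sensing ligase subunit that marks iron regulatory proteins for degradation, fell from 41.4 ± 1.37 to 23.9 ± 2.74 CPM (log2 fold change -0.80, SE 0.11, edgeR adjusted p = 0.00164). Aco1, iron regulatory protein 1, rose from 158 ± 14.3 to 218 ± 12.3 CPM (log2 fold change 0.46, SE 0.10, edgeR adjusted p = 0.00837). Ncoa4, the receptor that delivers ferritin for breakdown, had a log2 fold change of 0.08 (SE 0.13, edgeR adjusted p = 0.627) and is named here after its value was seen.

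**Figure D2:**
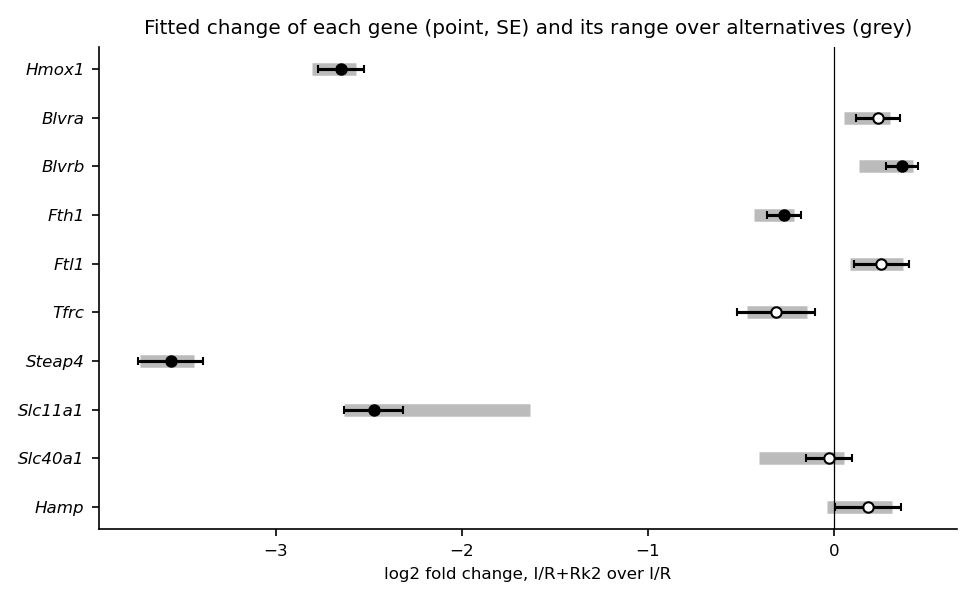
Log2 fold change of each gene, I/R+Rk2 over I/R (horizontal axis), with its SE as a bar, filled where the edgeR adjusted p is under 0.05, and with the range over the alternative analyses in grey. The ranges of Hmox1, Steap4 and Slc11a1 stay far below 0, and those of Slc40a1 and Hamp cross it.

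The largest change of the 10 genes, that of Steap4, was among the iron uptake and transport genes. Steap4 (ENSMUSG00000012428.9, GRCm38 chr5:7960457-7982213, plus strand) encodes a metalloreductase that reduces iron and copper and is known to be induced by inflammatory cytokines. It stood at 1116, 1273 and 885 CPM in I/R livers and at 102, 79.1 and 96.1 CPM in I/R+Rk2 livers. The lowest I/R liver was still far above the highest I/R+Rk2 liver. With means of 1091 ± 195 and 92.4 ± 11.8 CPM, it was 11.8-fold lower (log2 fold change -3.56, SE 0.18, edgeR adjusted p = 0.000198), and it kept its call under all 16 alternatives.

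Slc11a1 (ENSMUSG00000026177.11, GRCm38 chr1:74375195-74386062, plus strand) encodes Nramp1, a metal transporter of the phagosome membrane in macrophages and neutrophils, and C57BL/6 mice carry an allele of it without function. Its level was 16.2, 13.5 and 16.8 CPM in I/R livers and 3.15, 2.43 and 2.82 CPM in I/R+Rk2 livers, with no overlap. The means of 15.5 ± 1.76 and 2.80 ± 0.363 CPM gave a 5.55-fold lower level (log2 fold change -2.47, SE 0.16, edgeR adjusted p = 0.00024). It kept its call under all 16 alternatives, with log2 fold changes from -2.63 to -1.63. In FPKM the I/R livers spread more widely, at 9.19, 7.27 and 16.7, with replicate 3 alone high.

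In bulk tissue, fewer cells of a type and less RNA per cell cannot be told apart, and this applies first to Slc11a1 and Hmox1, which myeloid cells express. Of the neutrophil markers, 11 of 12 passed as lower in I/R+Rk2 livers, beside 23.7% of all genes. All 12 had a log2 fold change below 0, where 6257 of all 12411 tested genes did. The summed level of the neutrophil markers was 597 to 727 CPM in I/R livers and 110 to 252 CPM in I/R+Rk2 livers. All 12 monocyte markers passed as lower, beside the same 23.7% of all genes, with a sum of 1900 to 2229 CPM against 1189 to 1258 CPM. Fn1, which hepatocytes also make, held between 74.1% and 94.7% of that sum, and without it, a choice made after seeing the data, the sum was 448 to 553 CPM against 65.3 to 99.0 CPM. Of 13 Kupffer cell markers 3 passed as lower, a share of 23.1% beside 23.7% of all genes, and all 13 had a log2 fold change below 0, with a median of -0.54. Their sum was 130 to 189 CPM in I/R livers and 94.6 to 112 CPM in I/R+Rk2 livers. Hepatocyte markers mostly went the other way. Of these, 6 of 12 passed as higher, beside 20.3% of all genes, and 2 of 12 had a log2 fold change below 0. The sum ran from 68180 to 80281 CPM in I/R livers and from 100952 to 127026 CPM in I/R+Rk2 livers. Alb alone made up most of it, at means of 49227 CPM in I/R livers and 80119 CPM in I/R+Rk2 livers. Of 8 endothelial markers, 3 passed as higher and 3 as lower (75% called, beside 43.9% of all tested genes).

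Set against the I/R mean of each, the I/R+Rk2 livers held 14.3% to 18.3% of Hmox1, 7.25% to 9.33% of Steap4 and 15.7% to 20.3% of Slc11a1. The monocyte marker sum without Fn1 held 13.1% to 19.9%, the neutrophil sum 16.3% to 37.3% and the Kupffer cell sum 59.5% to 70.5%. Lyz2 and Cd14 made up most of the monocyte sum without Fn1, and with these left out as well, again a choice made after seeing the data, the remaining 9 markers held 5.11% to 8.95%. By the mean of the I/R+Rk2 livers, single monocyte markers held between 2.15% and 71.4% of their I/R mean. Of these 12 means, 6 lay below the lowest single Steap4 liver and 5 above the highest single Hmox1 liver. Where Hmox1, Steap4 and Slc11a1 stood beside the monocyte markers thus depended on which markers were summed. The part of these cells in the fall of the 3 genes was not tested.

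**Figure D3:**
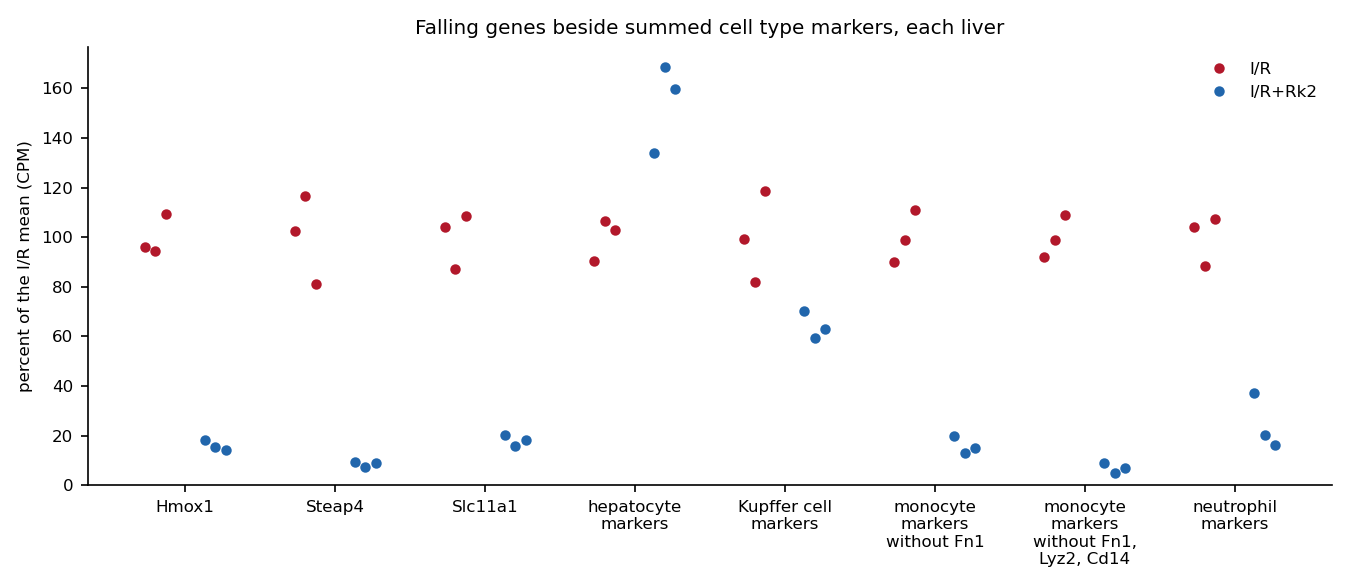
CPM of Hmox1, Steap4 and Slc11a1 and summed CPM of 4 marker lists, the monocyte list in 2 versions, in each liver as a percent of the I/R mean (vertical axis from 0), I/R in red and I/R+Rk2 in blue. In I/R+Rk2 livers Hmox1 and Slc11a1 sit near the monocyte sum without Fn1 and above the sum also without Lyz2 and Cd14, where Steap4 sits. The hepatocyte marker sum, most of it Alb, lies above the I/R livers.

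Tfrc (ENSMUSG00000022797.16, GRCm38 chr16:32608920-32632794, plus strand), the gene with the 4 sites in its 3′ UTR, measured 26.7, 39.3 and 37.7 CPM in I/R livers and 20.7, 31.2 and 31.9 CPM in I/R+Rk2 livers. The groups overlapped, since I/R replicate 1 lay below 2 of the I/R+Rk2 livers. The log2 fold change of -0.31 (SE 0.21) did not pass (edgeR adjusted p = 0.262).

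In the wider list of iron uptake and ferrireductase genes, 9 of 12 were tested, 3 were higher and 4 were lower, and the median log2 fold change was -0.43. That is 77.8% called, beside 43.9% of all tested genes. Lcn2, the siderophore-binding lipocalin made by hepatocytes and neutrophils in the acute phase, fell from 633 ± 167 to 48.8 ± 11.9 CPM (log2 fold change -3.70, SE 0.26, edgeR adjusted p = 0.00024). Slc39a14, the ZIP14 carrier through which hepatocytes take up iron not bound to transferrin, fell from 609 ± 90.8 to 179 ± 20.4 CPM (log2 fold change -1.77, SE 0.14, edgeR adjusted p = 0.000373). Slc11a2, the endosomal iron carrier DMT1, fell by 0.63 on the log2 scale (edgeR adjusted p = 0.00231).

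The Steap relatives of Steap4 went separate ways. Steap1, which lacks the reductase domain of its relatives, had 43, 64 and 71 counts in I/R livers and 5, 0 and 0 counts in I/R+Rk2 livers (edgeR adjusted p = 0.00262), too few for a stable fold change. Steap3, the endosomal ferrireductase of erythroid cells and liver, rose from 15.8 ± 3.84 to 29.3 ± 5.53 CPM (log2 fold change 0.90, SE 0.21, edgeR adjusted p = 0.0125). Steap2 had a log2 fold change of -0.43 that did not pass (SE 0.17, edgeR adjusted p = 0.0717) and is named after its value was seen.

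Iron export and its hormone showed no difference that passed. Slc40a1 (ENSMUSG00000025993.10, GRCm38 chr1:45908068-45926523, minus strand) measured 60.7, 53.7 and 58.3 CPM in I/R livers and 66.4, 50.6 and 52.7 CPM in I/R+Rk2 livers. The I/R+Rk2 livers lay on both sides of the I/R livers. The log2 fold change was -0.03 (SE 0.12, edgeR adjusted p = 0.884), and its sign depended on the scaling and on single livers. Per length the groups also overlapped, at 22.4 ± 4.68 FPKM in I/R livers and 16.8 ± 2.84 FPKM in I/R+Rk2 livers. The limma fits on FPKM gave larger log2 fold changes, from -0.40 to -0.38, that did not pass (limma adjusted p = 0.107 to 0.160).

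Hamp (ENSMUSG00000050440.8, GRCm38 chr7:30942368-30944032, minus strand) was at 490, 410 and 404 CPM in I/R livers and at 628, 449 and 404 CPM in I/R+Rk2 livers. The groups overlapped, and the mean of the I/R+Rk2 livers was raised by replicate 1. The log2 fold change of 0.18 (SE 0.18) did not pass (edgeR adjusted p = 0.427), and without I/R+Rk2 replicate 1 it was -0.03.

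Mice have another hepcidin gene, Hamp2 (GRCm38 chr7:30922372-30924681, minus strand), whose product is not known to act on ferroportin. It was at 65.4, 53.3 and 45.8 CPM in I/R livers and at 85.7, 103 and 89.3 CPM in I/R+Rk2 livers, with no overlap. It rose by 0.76 on the log2 scale (SE 0.14, edgeR adjusted p = 0.00600). The transcripts of Hamp and Hamp2 are 93.0% identical over 417 aligned bases, so reads may have been divided between them, and their sum did not pass (log2 fold change 0.26, SE 0.16, edgeR adjusted p = 0.216).

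Hepcidin transcription is driven by BMP signals through SMAD proteins and by IL-6 through STAT3. The 250 bases before the RefSeq start (GRCm38.p6) of both hepcidin genes are shown because one of the pair passed and the other did not, and those of Steap4 because it is the largest change and also responds to IL-6. Capitals mark GGCGCC, the core of the BMP element, and TTCNNNGAA, a STAT site, searched on both strands, whose matches do not overlap in these windows.
Hamp promoter (chr7:30944030-30944279, minus strand): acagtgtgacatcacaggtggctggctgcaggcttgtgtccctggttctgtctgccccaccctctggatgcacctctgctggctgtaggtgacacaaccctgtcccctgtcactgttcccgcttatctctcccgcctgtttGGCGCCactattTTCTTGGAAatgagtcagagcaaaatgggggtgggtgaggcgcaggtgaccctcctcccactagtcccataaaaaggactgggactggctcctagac
Hamp2 promoter (chr7:30924182-30924431, minus strand): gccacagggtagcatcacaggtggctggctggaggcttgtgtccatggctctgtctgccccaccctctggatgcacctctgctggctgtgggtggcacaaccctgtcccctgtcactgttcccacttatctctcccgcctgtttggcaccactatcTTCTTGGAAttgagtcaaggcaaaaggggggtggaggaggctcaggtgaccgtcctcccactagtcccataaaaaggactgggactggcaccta
Steap4 promoter (chr5:7960222-7960471, plus strand): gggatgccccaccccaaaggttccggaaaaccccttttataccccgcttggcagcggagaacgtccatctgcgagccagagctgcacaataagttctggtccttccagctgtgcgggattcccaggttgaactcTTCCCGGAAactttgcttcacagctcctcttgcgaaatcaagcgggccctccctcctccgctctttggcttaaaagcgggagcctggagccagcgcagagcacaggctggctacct
The promoters of Hamp and Hamp2 are 91.9% identical over 247 aligned bases. Hamp holds GGCGCC at -109 to -104 and TTCTTGGAA at -97 to -89 from its start, and Hamp2 holds TTCTTGGAA at -94 to -86 and no GGCGCC in this window. Steap4 holds TTCCCGGAA at -116 to -108. Hamp is not alone among the 10 genes in holding GGCGCC, since Tfrc holds it at -89 to -84 from a RefSeq start. Of 32851 mouse promoter windows of this length, 9.59% hold GGCGCC and 7.02% hold TTCNNNGAA, so a match to either is common. An antioxidant response core, TGACNNNGC, is in 10.2% of them and, of the 8 genes with a promoter entry, in that of Blvra. Hmox1 and Slc40a1 had no entry, and for no gene were bases beyond these 250 searched for this core.

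In the list of hepcidin control genes, which also counts Hamp2 among its higher genes, some were higher and some lower, at shares near those of all genes. Of 24 names, 2 of them other names of listed genes, 21 genes were tested, 5 were higher and 5 were lower (47.6% called, beside 43.9% of all tested genes), and the median log2 fold change was -0.17. On the IL-6 arm, Il6 fell from 4.61 ± 1.32 to 1.17 ± 0.425 CPM (log2 fold change -1.95, SE 0.34, edgeR adjusted p = 0.00421) and Stat3 from 195 ± 8.55 to 115 ± 10.4 CPM (log2 fold change -0.76, SE 0.09, edgeR adjusted p = 0.00123). On the BMP arm, Hfe2, which encodes the BMP co-receptor hemojuvelin, rose from 29.5 ± 6.65 to 87.2 ± 12.3 CPM (log2 fold change 1.56, SE 0.18, edgeR adjusted p = 0.00111). Tmprss6, the protease that cleaves hemojuvelin, also rose, by 0.59 on the log2 scale (edgeR adjusted p = 0.00326). Id1 and Smad7, textbook targets of the BMP pathway, had log2 fold changes of -0.61 (SE 0.25, edgeR adjusted p = 0.0859) and -0.80 (SE 0.35, edgeR adjusted p = 0.0999) and are named after their values were seen. Hfe2 and Tmprss6 are made by hepatocytes, whose marker sum, most of it Alb, was higher in the same livers. The part of that in the rise of Hfe2 and Tmprss6 was not tested.

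**Figure D4:**
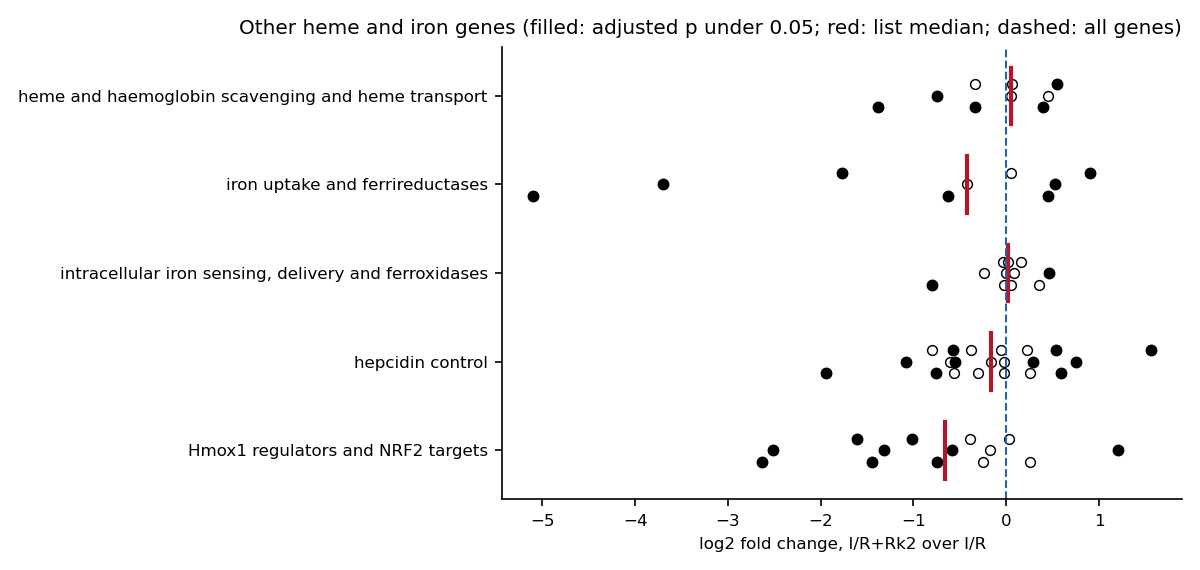
Log2 fold change, I/R+Rk2 over I/R (horizontal axis), of each tested gene of the 5 lists around the 10 genes, filled where the edgeR adjusted p is under 0.05, with the list median in red and the median of all tested genes dashed. The Hmox1 regulators and NRF2 targets lie furthest to the lower side by median, and the lists of iron sensing and heme scavenging centre near 0.

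Over these 5 lists together, 64 genes were tested, 12 were higher and 21 were lower, which is 51.6% of them beside 43.9% of all genes. Their median log2 fold change was -0.17.

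The order of the 10 genes per length showed the same split. In I/R livers, by mean FPKM, the order was Fth1 (1995), Hamp (1058), Ftl1 (816), Steap4 (344), Hmox1 (186), Blvrb (57.7), Slc40a1 (22.4), Slc11a1 (11.1), Tfrc (10.8) and Blvra (7.49), and of the neighbours Slc11a1 and Tfrc overlapped in range. The places of Hamp and Ftl1 rest on counting each alone, since the sums with their copies overlapped, at 1238 FPKM for Ftl1 with Ftl1-ps1 and 1188 FPKM for Hamp with Hamp2. In I/R+Rk2 livers Steap4 and Hmox1 stood below Blvrb, at 26.0 and 27.0 FPKM beside 63.5, and Slc11a1 came last, at 2.69 FPKM. There the neighbours that overlapped were Hamp (1075) and Ftl1 (911), Hmox1 and Steap4, and Blvra (7.83) and Tfrc (7.80). The top of the order, with ferritin and hepcidin, was shared by the groups.

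**Figure D5:**
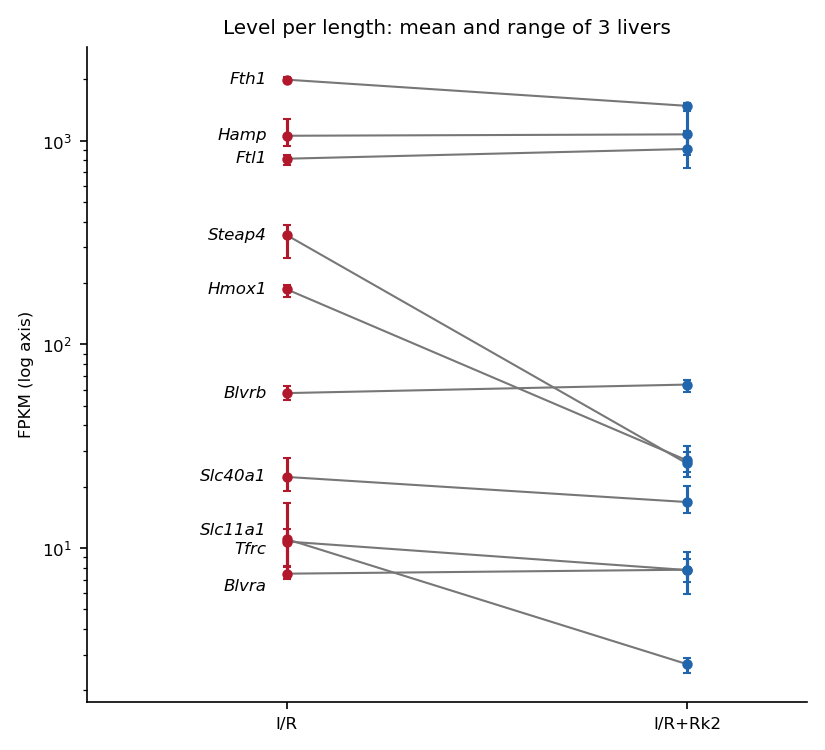
Mean FPKM of each gene in I/R and I/R+Rk2 livers (vertical log axis), with bars from the lowest to the highest of 3 livers and a line joining the means. Steap4, Hmox1 and Slc11a1 drop through the order, and the lines of the other genes run nearly level.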

How the data were processed

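Liver RNA-seq of 3 I/R and 3 I/R+Rk2 mice was analysed. Per the labels, libraries were made from 250 ng of total RNA, and the submitters' processing notes name FastQC 0.11.5, HISAT2 2.2.1, StringTie 1.3.3 and the build mm10. The annotation and the strand setting are not given in the sources used here. The authors deposited a table of read counts per gene, not normalised, and a table of FPKM values, normalised for transcript length and library size. Every sample column was matched to 1 sample by its title.

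Counts were fitted over all genes with edgeR 4.0.16 in R 4.3.3 (filterByExpr, TMM, quasi-likelihood test, Benjamini-Hochberg adjustment), and a call was an adjusted p under 0.05, with a fold above 2 where stated. The script was tested on simulated data. Alternatives were DESeq2 1.42.0, limma 3.58.1 on log2(FPKM + 1) or log2(FPKM + 0.1), other scalings and filters, a replicate block and leaving out each liver. FPKM ratios were tested by exact permutation. The SE is the log2 fold change divided by the root of the F statistic.

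The genes and lists were chosen with earlier results of these data known. The text names all 10 genes, Hamp2, and of each list at most 5 genes with the smallest p among those that passed, other genes being marked where they appear. Gene positions and UTRs come from GENCODE and promoters from RefSeq, both on GRCm38, the assembly of mm10.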

Additional observations from a re-analysis of the deposited data

How the results depend on the processing

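Hmox1, Steap4 and Slc11a1 kept their direction and their call under all 16 alternatives. The count of the 10 genes past the threshold was 4 or 5 under each alternative that kept all 6 livers, and between 3 and 4 when 1 liver was left out, with the 3 reached without I/R+Rk2 replicate 2. Over the 10 genes, 141 of 162 single results kept direction and call, 15 lost the call, 1 gained it and 5 changed sign, and of 349 for the other named genes 319 kept both, 27 lost the call and 3 changed sign. Hamp changed sign without I/R+Rk2 replicate 1 (-0.0345). Leaving out each liver in turn gave Hamp values from -0.0345 to 0.31. Slc40a1 changed sign with upper-quartile scaling (0.0281), with replicate 1 of the I/R group left out (0.0236) and with replicate 2 (0.0535) or 3 (0.0278) of the I/R+Rk2 group left out, with a range from -0.16 to 0.0535 over the livers left out. Abcg2 changed sign in the 3 limma fits on FPKM (-0.189, -0.195 and -0.189). Neither Hamp nor Slc40a1 passed the threshold under any of them, and the cause of these changes was not tested. The log2 difference of the Fth1 to Ftl1 ratio ranged from -0.70 to -0.39 when 1 liver was left out, and that of the Blvrb to Blvra ratio from 0.05 to 0.14.

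Library size alone as the scaling moved the median log2 fold change of all genes from -0.01 to -0.17 and the split of calls from 2516 higher and 2938 lower to 1320 and 3481, and the FPKM fits with a filter had medians of -0.12 and -0.15, so small changes such as those of Blvrb and Fth1 rest on the scaling. Deviations from the group mean had correlations of -0.03, 0.05 and -0.02 between same-numbered livers. With 3 livers per group this check cannot settle whether the numbers pair the samples. With the replicate block 5 of the 10 genes passed, with Fth1 lost (adjusted p = 0.0507) and Tfrc gained (adjusted p = 0.0449), and 4713 of all genes passed in place of 5454. The differences of Blvra and Ftl1 did not pass, which does not show that they are absent.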
